A study of Mus musculus with 2 samples.

Results

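Transcripts of 9 genes of immature blood cells were examined in eosinophils of mouse bone marrow: the transcription factors Myb, Myc, Meis1, Hoxa9, Gfi1 and Mecom, the cytokine receptor Flt3, and the surface proteins Cd34 and Ly6a. They are the rows of the deposited tables whose gene symbol equals one of these names, 11 rows in all, and they make up 9 of 23343 genes. The cells were granulocytes that stained for CCR3, a chemokine receptor, and for the lectin SiglecF. They were sorted from pooled bone marrow of naïve C57BL6J mice that received no treatment, and polyA RNA was sequenced from 2 independent sorts of this 1 group. No second cell type, genotype or treatment is described, and neither the age, the sex nor the number of the mice in a pool is given in the sources used here, so levels within the sorts and the difference between the 2 libraries are what can be measured. Each sort is 1 library, and every p-value below compares these 2 libraries only.

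As background, blood stem and progenitor cells are held in an immature, dividing state by a small set of factors. MYB and MYC drive division and biosynthesis, HOXA9 works on DNA together with its partner MEIS1, GFI1 represses transcription in stem cells and granulocytes, and the MECOM locus (MDS1 and EVI1) maintains stem cells. FLT3, CD34 and LY6A (the Sca-1 antigen) are surface proteins by which stem cells and early progenitors are recognised, and most of this programme is shut down as granulocytes mature. Eosinophils arise in the marrow from CD34-positive precursors that carry the interleukin-5 receptor.

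Summed counts were 10087743 for sort 1 and 9264150 for sort 2. Sort 1 had 47487 reads of Xist, the RNA of the inactive X chromosome in females, against 5 in sort 2, whereas 4 Y-linked genes had 0 and 2439 reads in all. By these genes the RNA of sort 1 had the pattern of female mice and that of sort 2 the pattern of male mice. In every comparison of the sorts below, sex and sort cannot be told apart. The ribosomal RNA precursor Rn45s had 914623 and 89209 reads. All 11 eosinophil markers examined were detected, among them Ear1, Prg2, Alox15 and Ear6, with median levels of 114 and 118 RPKM (reads scaled by transcript length and by library depth) in sorts 1 and 2.

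The progenitor genes fell into a detected and an undetected part. A gene was called detected at 1 RPKM or more in both sorts. Myb, Myc, Meis1, Gfi1 and Cd34 were detected and Ly6a, Flt3, Hoxa9 and Mecom were not, which is 5 of 9, where 30.2% of all genes were detected. The median over the 9 genes was 1.36 RPKM in sort 1 and 1.31 in sort 2, beside 0.108 and 0.0896 over all genes, of which 8945 and 8970 were at 0. Among the genes detected in both sorts the medians were 4.07 and 3.97 RPKM, above the median of all 9 members, of which 4 were not detected. The median of the 5 detected members was that of Meis1, 3.67 RPKM in sort 1 and 3.84 in sort 2. Ranked only among genes with at least 10 reads, the 5 detected members ran from the percentile of 92.4 for Myb to 45.8 for Cd34, and Ly6a, Flt3 and Hoxa9 stood at 12.3, 6.67 and 5.24. Together the 9 genes took 3439 reads in sort 1, or 0.0341% of the library (95% Wilson interval 0.0330 to 0.0352), and 3886 in sort 2, or 0.0419% (0.0406 to 0.0433). Myb, Myc and Meis1 supplied 88.1% and 86.5% of those reads, whereas the 4 genes that were not detected supplied 44 and 24 reads in total. The library totals behind the 2 shares include Rn45s, with 914623 reads in sort 1 and 89209 in sort 2. This lowers the share of the 9 genes more in sort 1 than in sort 2, which the intervals do not cover. In bulk RNA, few cells with much of a transcript cannot be told apart from many cells with little of it.

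**Figure D1:**
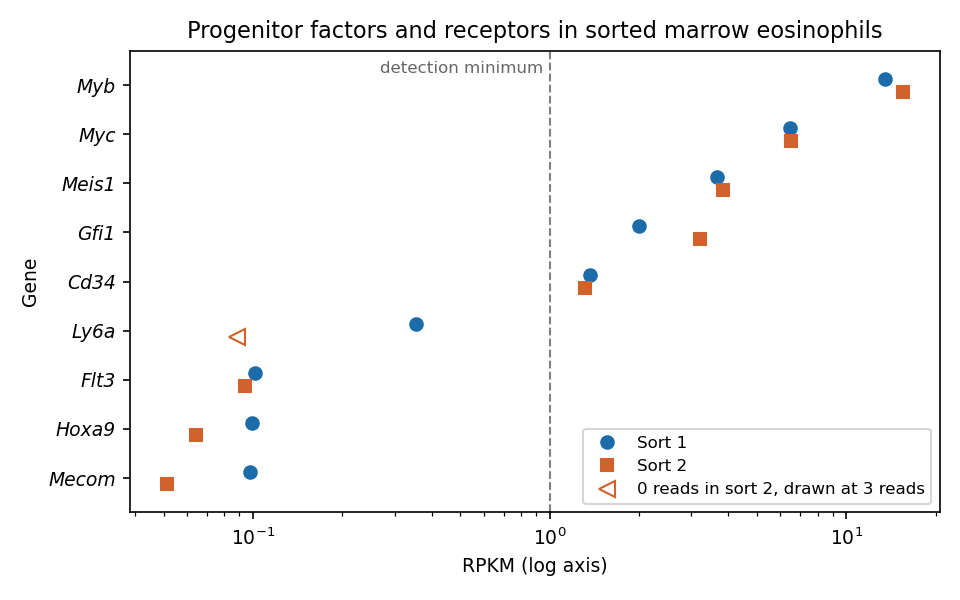
Level of each progenitor gene in RPKM on a log axis, with circles for sort 1 and squares for sort 2; the dashed line marks 1 RPKM, the detection minimum. Myb, Myc, Meis1, Gfi1 and Cd34 lie to the right of the line in both sorts, and the open triangle stands for the 0 reads of Ly6a in sort 2, drawn at what 3 reads are worth in sort 1 (0.0884 RPKM).

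Ordered by mean RPKM the genes ran Myb, Myc, Meis1, Gfi1, Cd34, Ly6a, Flt3, Hoxa9 and Mecom. The ranges over the 2 sorts did not overlap between the 5 neighbouring pairs from Myb down to Ly6a. For Gfi1 and Cd34 this rests on the sum of the 2 rows of Gfi1. With its higher row in each sort Gfi1 had 1.04 and 2.14 RPKM, a range that overlapped that of Cd34 (1.36 and 1.31). The ranges of the 3 last pairs, Ly6a and Flt3, Flt3 and Hoxa9, and Hoxa9 and Mecom, did overlap, so the order of the last 4 genes is not resolved. In sort 2 alone Ly6a was the last of the 9. With 2 values a gene, an exact test could not have reached a p under 0.05, and none was made.

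Myb, whose protein is a DNA-binding activator needed by dividing progenitors, had the highest level of the set. It had 13.5 RPKM (1900 reads) in sort 1 and 15.5 RPKM (2204 reads) in sort 2, or 14.5 ± 1.46 (SD, n = 2), above 96.0% of all genes. Sort 2 was the higher of the 2 by 0.28 on the log2 scale. This passed the exact binomial test on the 2 libraries (adjusted p = 4.04e-09) but was well under a 2-fold difference, and edgeR's exact test with the dispersion between the libraries gave an adjusted p of 1. The relatives of Myb were under the detection minimum but above the median of all genes, with Mybl1 at 0.264 and 0.339 RPKM and Mybl2, a factor of the cell cycle, at 0.287 and 0.446. Neither relative overlapped with Myb in level. The acetyltransferases that MYB recruits had higher levels than Myb itself, Ep300 with 26.5 and 33.5 RPKM and Crebbp with 18.3 and 19.8. Of the 7 relatives and coactivators of MYB, 5 were detected.

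The gene lies on chromosome 10 from 21124930 to 21160984 on the minus strand (mm10), in 1 deposited row of 2 RefSeq transcripts. The 250 bases before its start are shown because this promoter belongs to the most abundant member and is the richest in CG dinucleotides of the 9 promoters found for 7 members. They hold 40 of them, more than in 98.7% of 32851 RefSeq promoters (GRCm38.p6), where the median is 6. In each promoter printed here, AATC on either strand, the core of the site bound by GFI1, is in capitals.
Myb promoter, chr10:21160985-21161234, minus strand: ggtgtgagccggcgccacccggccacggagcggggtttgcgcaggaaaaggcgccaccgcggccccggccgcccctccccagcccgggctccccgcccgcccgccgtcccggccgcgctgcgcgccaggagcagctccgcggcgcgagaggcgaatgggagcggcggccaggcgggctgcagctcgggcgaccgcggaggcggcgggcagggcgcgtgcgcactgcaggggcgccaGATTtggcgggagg

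Myc, the growth factor-responsive factor that pairs with MAX, was the next in level, with nearly equal values in the sorts. It had 6.46 RPKM in sort 1 (626 reads) and 6.50 in sort 2 (630 reads), or 6.48 ± 0.0244 (SD, n = 2), above 90.1% of all genes. No difference between the sorts passed the exact binomial test (log2 ratio 0.08, 95% interval -0.08 to 0.24, adjusted p = 0.47). Its gene is on chromosome 15 from 61985341 to 61990361, plus strand, in a row of 4 transcripts.

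The partners and antagonists of MYC lay on both sides of the level of Myc. Max, the dimerisation partner, had 68.9 and 82.3 RPKM, and Mxd1, which competes with MYC for MAX and is known from maturing granulocytes, had 49.1 and 55.1. Of the further genes of this network, Mlxip (8.07 and 7.54 RPKM) and Mxi1 (6.80 and 6.79) were near Myc itself. Mga, Mxd4, Mnt, Mlx and Mxd3 were below Myc in both sorts. The paralogues were almost without reads, with 8 and 1 for Mycn and none for Mycl1. Of 13 genes of the MYC network 9 were detected, and 1, the antagonist Mxd3 with 7 and 20 reads, was called higher in sort 2. Among 23 genes known as MYC targets in growth and ribosome assembly, 18 were detected and none was called different between the sorts, with medians of 1.93 and 2.21 RPKM. They were led by the lactate dehydrogenase gene Ldha (72.2 and 54.2 RPKM) and the nucleolar protein genes Npm1 (37.5 and 52.8) and Ncl (14.9 and 19.2), followed by the translation factor gene Eif4a1 (7.93 and 8.32).

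**Figure D2:**
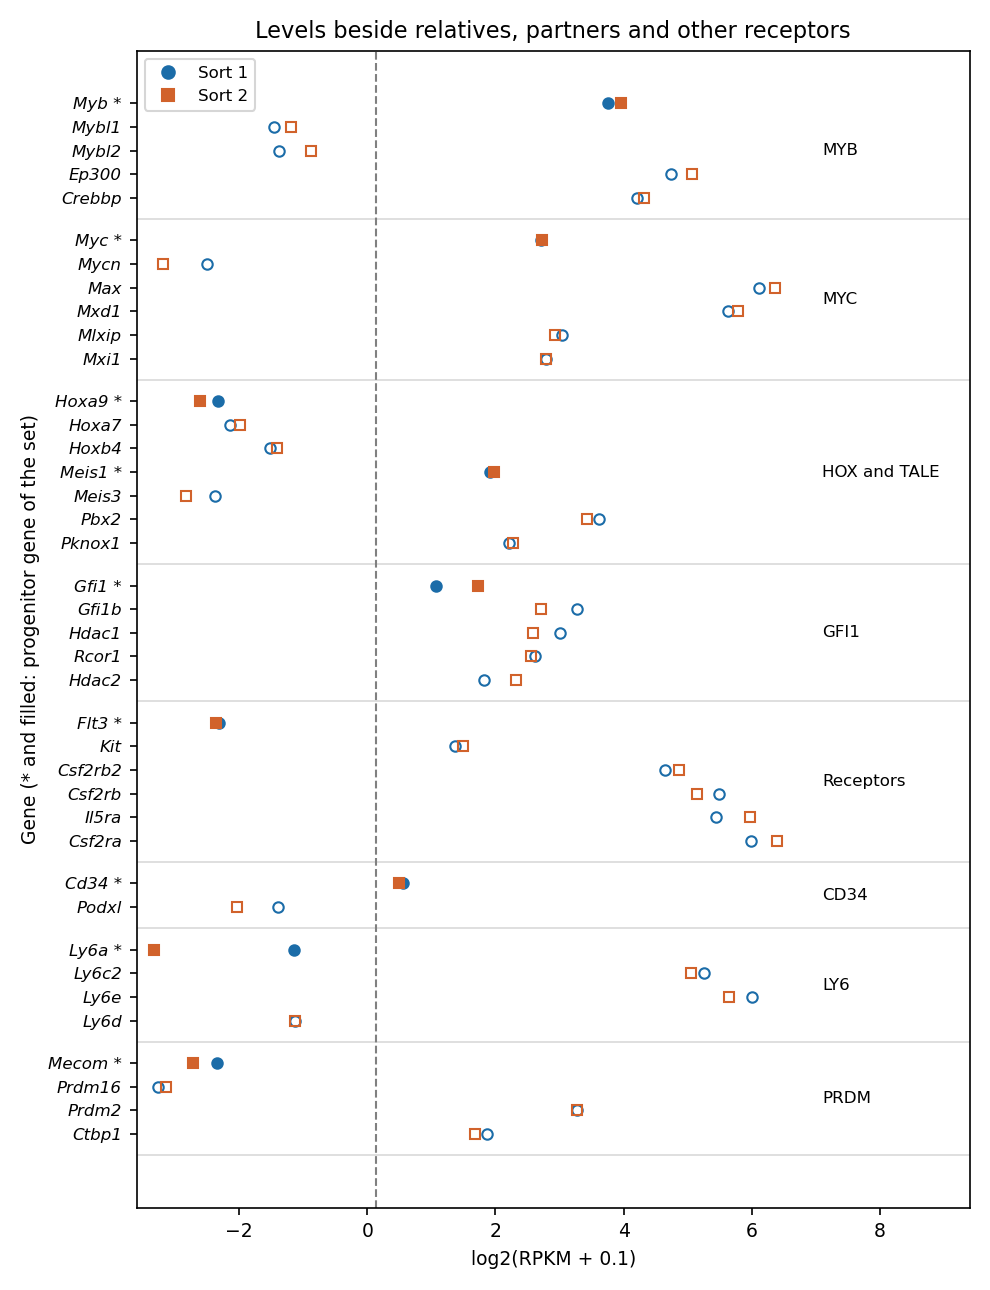
Levels as log2(RPKM + 0.1) for the 9 progenitor genes (filled, with an asterisk) and for relatives, partners and other receptors (open), in sort 1 (circles) and sort 2 (squares); the dashed line is at 1 RPKM. Max and Mxd1 lie above Myc, Gfi1b lies above Gfi1, Ly6c2 and Ly6e lie above Ly6a, and Hoxa9 lies on the far side of the line from Meis1.

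Meis1 and Hoxa9, which act as partners in progenitors and in leukaemia, were at very different levels. Meis1, a homeodomain factor of the TALE class, had 3.67 RPKM in sort 1 (504 reads) and 3.84 in sort 2 (526 reads), or 3.75 ± 0.119 (SD, n = 2), above 84.1% of all genes. No difference between the sorts passed the exact binomial test (log2 ratio 0.13, interval -0.05 to 0.31, adjusted p = 0.25). Hoxa9 had 0.0990 RPKM from 12 reads in sort 1 and 0.0643 RPKM from 7 reads in sort 2. Both counts are above the 3 reads that a count of 0 would allow, and the levels of Hoxa9 and Meis1 did not overlap. Its log2 ratio of -0.58 has an interval of -2.29 to 0.75, so a difference between the sorts was not detectable at this depth.

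Other Hox genes were likewise close to or at 0. Hoxa7 had 10 and 12 reads and Hoxa3 had 8 and 1. Hoxa4, Hoxa5 and Hoxa6 had between 0 and 4 reads in a sort, and Hoxa2, Hoxa10, Hoxa11 and Hoxa13 had none in either. The Hox gene with most reads among those examined was Hoxb4, with 26 and 29 reads (0.278 RPKM in sort 2). Several cofactors of these factors had higher levels. Pbx2 had 12.1 and 10.7 RPKM and Pknox1 4.54 and 4.75, and the MLL gene Kmt2a, an activator of Hox loci, had 7.21 and 7.50, with its tether Psip1 at 8.65 and 11.3. Of the relatives of Meis1, Meis3 had 6 and 2 reads and Meis2 had none, and Pknox2, a relative of Pknox1, had 8 and 4. In all 7 of 30 Hox, TALE and MLL genes were detected, each of them a cofactor and none a Hox gene, and none of the 12 tested was called different between the sorts.

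Hoxa9 lies on chromosome 6 from 52223097 to 52227370 and Meis1 on chromosome 11 from 18880428 to 19018969, both on the minus strand in 1 row of 2 transcripts. The promoter of Hoxa9 is shown as the counterpart to that of Myb with few CG dinucleotides, of which it held 3. It held 1 AATC core, as did that of Myb. The core was present in 69.0% of all promoters of this length, so its presence there is common.
Hoxa9 promoter, chr6:52227371-52227620, minus strand: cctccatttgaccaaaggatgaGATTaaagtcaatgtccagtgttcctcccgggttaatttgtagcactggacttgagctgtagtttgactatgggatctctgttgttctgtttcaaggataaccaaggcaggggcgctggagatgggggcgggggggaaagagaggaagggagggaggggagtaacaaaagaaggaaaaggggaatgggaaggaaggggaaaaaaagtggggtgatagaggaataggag

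Gfi1, the zinc finger repressor of granulocyte development, was detected and had the largest log2 ratio between the sorts among the 5 detected members. It had 2.00 RPKM in sort 1 (222 reads) and 3.21 in sort 2 (363 reads), or 2.61 ± 0.856 (SD, n = 2), above 79.6% of all genes. Sort 2 was 1.71-fold higher on TMM-scaled counts (log2 ratio 0.77, interval 0.53 to 1.02). This passed the exact binomial test (adjusted p = 1.57e-09) without reaching the 2-fold rule, and edgeR's exact test gave an adjusted p of 1. After a correction for transcript GC content the log2 ratio was 1.06, past 2-fold. Its paralogue Gfi1b, better known from red cell and platelet precursors, was the more abundant gene, with 9.54 RPKM in sort 1 and 6.42 in sort 2. Gfi1b was the lower in sort 2 (log2 ratio -0.51, adjusted p = 3.51e-08 by the exact binomial test), opposite to Gfi1. This did not reach the 2-fold rule or pass edgeR's exact test, and after the GC correction the log2 ratio of Gfi1b was -0.23. Of all tested genes 44.4% had an adjusted p under 0.05 in the exact binomial test.

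The 2 deposited rows of Gfi1 share their end at 107716655 on chromosome 5 and differ in their start on the minus strand, at 107724343 for the downstream and 107725805 for the upstream transcript. In sort 1 each row had 111 reads, which is 50% of the gene. In sort 2 the downstream row had 248 reads, or 68.3%, and the upstream row 115, or 31.7%. The upstream row thus had nearly equal counts in both sorts, and the higher count of sort 2 was in the downstream row. The rows overlap over most of their length and no source used here gives the counting rule for shared reads. The equal counts of sort 1 may thus be an even split, or the same reads counted in both rows, and the summed level may be too high. If reads were counted in both rows, the binomial p and the interval of Gfi1 understate the counting error. The 2-fold rule was applied to the sum of the rows, and neither row was tested alone. The upstream row alone had 1.04 and 1.07 RPKM, just over the detection minimum in both sorts. The downstream row alone had 0.962 and 2.14 RPKM, under the minimum in sort 1.

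**Figure D3:**
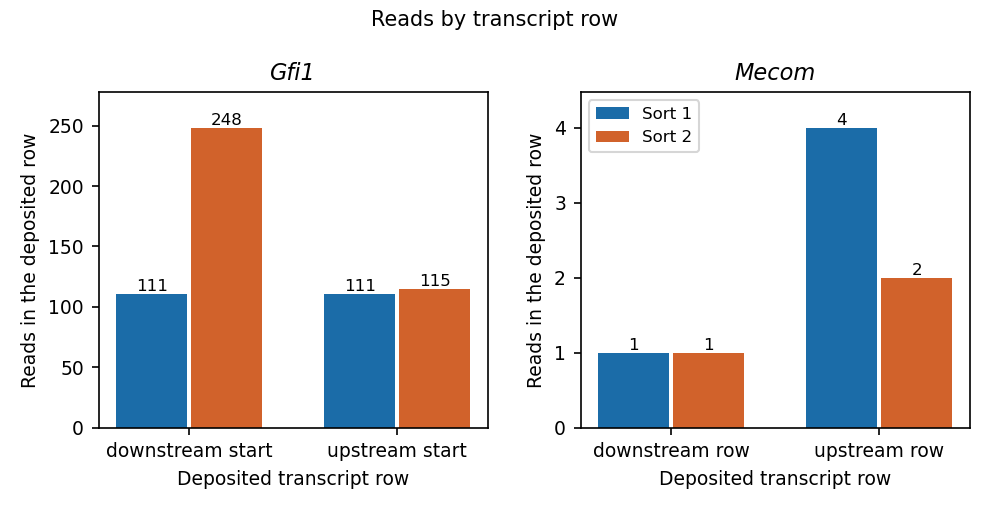
Reads in each deposited transcript row of Gfi1 (left) and Mecom (right), with blue bars for sort 1 and orange bars for sort 2. The downstream row of Gfi1 has 111 and 248 reads while the upstream row has 111 and 115, and no row of Mecom has more than 4.

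The promoters of both Gfi1 starts are shown because the 2 rows differ in their start and had unequal counts in sort 2, although reads shared by the rows cannot be assigned to either start. GFI1 is known to repress its own gene. The upstream window held 1 AATC core and 13 CG dinucleotides, and the downstream window held 0 and 9.
Gfi1 upstream start, chr5:107725806-107726055, minus strand: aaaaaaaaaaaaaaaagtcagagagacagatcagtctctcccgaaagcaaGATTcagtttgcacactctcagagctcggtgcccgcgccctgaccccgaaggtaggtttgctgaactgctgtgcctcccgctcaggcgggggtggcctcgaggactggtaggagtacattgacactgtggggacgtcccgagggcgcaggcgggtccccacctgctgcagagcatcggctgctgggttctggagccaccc
Gfi1 downstream start, chr5:107724344-107724593, minus strand: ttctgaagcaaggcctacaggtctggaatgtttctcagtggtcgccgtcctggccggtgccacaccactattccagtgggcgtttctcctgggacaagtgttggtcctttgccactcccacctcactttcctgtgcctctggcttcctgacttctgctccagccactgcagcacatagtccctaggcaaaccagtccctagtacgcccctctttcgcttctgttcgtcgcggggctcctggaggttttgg

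The corepressors through which GFI1 acts lay on both sides of the level of Gfi1. Hdac1 had 7.94 and 5.92 RPKM, Rcor1 6.02 and 5.79 and Hdac2 3.43 and 4.90, above Gfi1 in each sort, as was Kdm1a, whereas Ehmt2, Hdac3, Rcor2 and Ajuba had lower means. With Gfi1b 7 of 10 genes of this list were detected. Rcor2, a relative of Rcor1, had 37 and 13 reads and was called higher in sort 1. Of 8 genes known to be repressed by GFI1, 6 were detected, led by Id2 (26.7 and 21.4 RPKM), Csf1 (12.7 and 13.6), Gfi1b and the immediate early gene Egr1 (4.12 and 1.65). Egr1 was called higher in sort 1 (log2 ratio -1.24), and 1 of the 8 had a ratio above 0, where 49.9% of all tested genes did. Whether GFI1 acts on any of these genes in these cells was not tested.

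Mecom was at the limit of counting. Its 2 rows do not overlap: the downstream row, on chromosome 3 from 29951296 to 30013204, had 1 read in each sort, and the upstream row, from 30236569 to 30509487, had 4 reads in sort 1 and 2 in sort 2. The sum of 8 reads over both sorts was under the 10 needed for a test. A relative with the same domain, Prdm16, had 1 and 4 reads. The gene family as such was not missing, since Prdm2 had 9.55 and 9.54 RPKM, Prdm4 1.88 and 2.11, and the corepressor Ctbp1, which EVI1 binds, 3.55 and 3.12. In all 3 of 16 genes of this list were detected. The promoter of the downstream start held 4 AATC cores and 8 CG dinucleotides, and it is shown as the start of the transcript that encodes EVI1.
Mecom downstream start, chr3:30013205-30013454, minus strand: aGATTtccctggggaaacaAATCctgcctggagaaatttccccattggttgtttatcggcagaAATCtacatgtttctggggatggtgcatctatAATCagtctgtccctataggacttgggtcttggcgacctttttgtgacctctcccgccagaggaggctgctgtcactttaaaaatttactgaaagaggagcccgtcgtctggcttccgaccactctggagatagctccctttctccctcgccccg

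Cd34, the sialomucin of early progenitors, was the 1 surface protein gene of the set that was detected. It had 1.36 RPKM in sort 1 (143 reads) and 1.31 in sort 2 (139 reads), or 1.34 ± 0.0362 (SD, n = 2), above 71.3% of all genes and 45.8% of those with at least 10 reads. No difference between the sorts passed the exact binomial test (log2 ratio 0.03, interval -0.32 to 0.37, adjusted p = 0.95), and at a minimum of 2 RPKM the gene would not have been called detected. Its relative Podxl had 0.283 and 0.143 RPKM and Podxl2 had no reads. The gene lies on chromosome 1 from 194938821 to 194961292, plus strand, in 1 row of 2 transcripts.

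Flt3, the tyrosine kinase receptor of multipotent and lymphoid progenitors and dendritic cells, was not detected. It had 0.101 RPKM (15 reads) in sort 1 and 0.0943 RPKM (14 reads) in sort 2, at the percentile of 49.6 among all genes, many of which have no reads, and of 6.67 among genes with at least 10 reads. Its counts were nearly equal, but the interval of the log2 ratio, -1.19 to 1.12, allows a 2-fold difference. Kit, the receptor of the same class on stem and mast cells, had 2.47 and 2.73 RPKM, higher in both sorts than Flt3. That level sums a pair of rows that start within a few bases of each other and had equal counts in each sort, so it may be too high, as for Gfi1. The receptors of the eosinophil growth factors were far higher, with Csf2ra at 63.3 and 84.1 RPKM, Il5ra at 43.3 and 62.6, Csf2rb at 44.8 and 35.2 and Csf2rb2 at 25.0 and 29.2. Of 12 cytokine receptors of progenitors 7 were detected and none was called different between the sorts. The ligand Flt3l was detected with 6.09 and 3.67 RPKM, 1 of 2 detected among 10 ligands, the other being Csf1. Of 10 signalling genes downstream of FLT3, shared with many receptors, 8 were detected, led by Cbl (26.7 and 27.0 RPKM), Sh2b3 (12.6 and 10.8), Grb2 (7.13 and 6.61) and Cblb (6.65 and 6.42). Socs2, a feedback inhibitor of cytokine signalling, had 14 and 0 reads and was called higher in sort 1 (adjusted p = 0.00054 by the exact binomial test). Flt3 lies on chromosome 5 from 147330742 to 147400489, minus strand, in 1 row of 1 transcript.

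Ly6a, the gene of the stem cell antigen Sca-1, was the 1 member called different between the sorts on counts summed per gene. It had 12 reads in sort 1, or 0.354 RPKM, and 0 in sort 2, where a count of 0 allows up to 0.324 CPM (reads scaled to the total of the table). On TMM-scaled counts it was at least 3.82-fold higher in sort 1 against a floor of 3 reads per library (adjusted p = 0.0019 by the exact binomial test). With the counting error of the 12 reads included, the 95% interval of the log2 ratio ends at -1.41, a smaller difference than that floor gives. This is 1 of 8 tested members, where 7.95% of 12347 tested genes were called, 4.9% as higher in sort 1 and 3.05% as higher in sort 2. The call rests on 12 reads, and edgeR's exact test, which adds the dispersion between the libraries, gave an adjusted p of 0.18. The row joins 6 transcripts on chromosome 15 from 74994877 to 74998031, minus strand.

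Of the relatives of Ly6a examined, 2 were abundant and most were not detected. Ly6e, a broadly expressed member, had 57.0 ± 9.93 RPKM (SD, n = 2) and Ly6c2, a marker of myeloid cells, 35.6 ± 3.61, while Ly6c1 had 0 and 2 reads and Ly6d, a marker of early lymphoid cells, 10 in each sort. Ly6a was below Ly6e and Ly6c2 in both sorts. Of 18 tabulated genes of the family, 2 were detected, and Ly6g5b, with 41 and 11 reads, was called higher in sort 1. Similar copies can share reads, and whether this bears on the reads of Ly6a was not tested.

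Other genes known from stem and progenitor cells were present in part. Of 26 such genes outside the set 14 were detected, with medians of 1.15 and 1.40 RPKM. The highest were Fli1 (25.9 and 25.4 RPKM), Lyl1 (20.6 and 16.2), the cell cycle kinase Cdk6 (18.4 and 17.4) and Cd48 (10.8 and 13.5), all of which other blood cells also express. The stem cell genes Procr, with 4 and 1 reads, and Esam, with none, were at or near 0. None of the 21 tested was called different between the sorts.

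**Figure D4:**
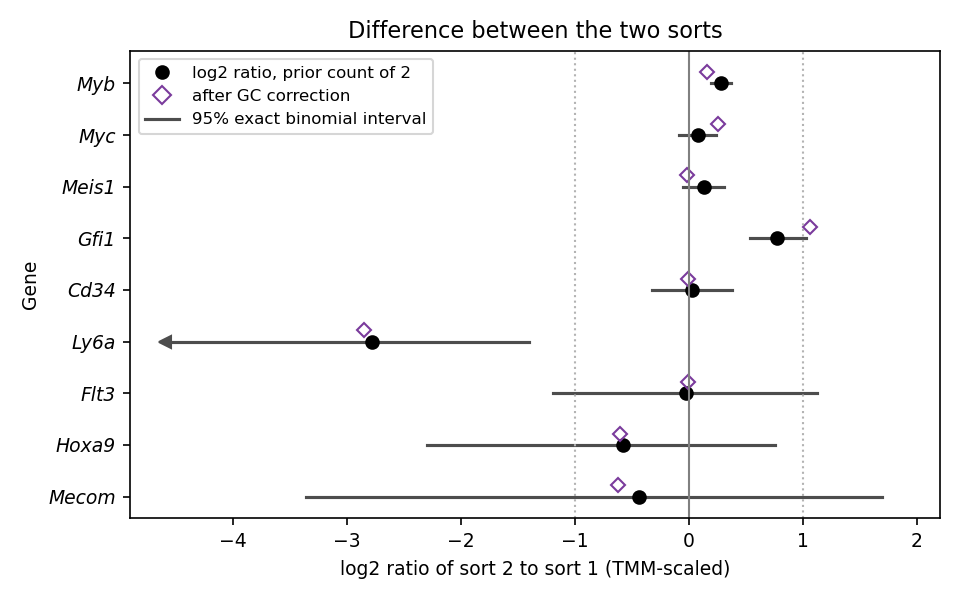
The log2 ratio of sort 2 to sort 1 for each progenitor gene (black points, TMM-scaled counts with a prior count of 2), its 95% exact binomial interval (lines, counting error only) and the value after GC correction (open diamonds); dotted lines mark 2-fold. The interval of Ly6a lies wholly below -1, that of Gfi1 lies above 0, and those of Flt3, Hoxa9 and Mecom span 0 widely.

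Between the sorts, 3 of the 8 tested members (Myb, Gfi1 and Ly6a) had an adjusted p under 0.05 in the exact binomial test whatever their fold, as had 44.4% of all tested genes. Of 9 members 5 had ratios above 0. By edgeR's exact test 0 of 8 passed the adjusted p, where 0.267% of all tested genes did, and 1, Ly6a, had an unadjusted p under 0.05, as had 6.16% of all tested genes. Across 8680 genes with at least 100 reads, the log2 ratio was lower at higher transcript GC content (Spearman correlation -0.54, given as a description, since genes are not replicates). The GC content was 46.7% for Myb, 57.3% for Gfi1 and 54.4% for Myc, and after the correction the log2 ratios of Myb and Myc were 0.16 and 0.26.

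Markers of other cells that express the progenitor genes were measured in the same libraries. Of 7 genes of granulocyte and monocyte precursors, cells that express Myb and Gfi1, all 7 were detected and had ratios above 0, and none was called. They were led by Mpo (161 and 173 RPKM), Igsf6 (91.7 and 139.9), Elane (66.9 and 87.7) and Ctsg (15.0 and 20.1), and their summed level was 353 RPKM in sort 1 and 441 in sort 2, with none at 0. Igsf6 supplied most of the difference between these sums. Of 16 cell cycle genes 15 were detected and 13 had ratios above 0, with summed levels of 73.7 and 102 RPKM, led by Mki67 (21.6 and 38.0). None of the 16 was called. Mki67 made up most of the higher sum of sort 2, while the median of the list was 2.65 RPKM in sort 1 and 2.41 in sort 2, and Mcm5 (log2 ratio -0.57), Aurkb and Mcm3 had ratios below 0. The part of either list in the levels of Myb and Gfi1 was not tested.

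Of 10 basophil and mast cell genes 7 were detected, with summed levels of 32.4 and 34.9 RPKM and Cpa3 at 6.10 and 10.1 and Hdc at 8.16 and 7.60. Ms4a2 had 4.83 and 5.66 RPKM and Mcpt8 3.98 and 4.29. Near or at 0 were Fcer1a, with 4 and 11 reads, Cma1, with 0 and 3, and the mast cell tryptase Tpsb2, with none. Mast cells and their precursors can express Cd34 and Kit, and the part of this list was not tested. Megakaryocyte genes, where Meis1 is also active, had 1 of 9 detected, Itga2b at 2.44 and 2.05 RPKM. The platelet genes Pf4 and Gp9 had at most 5 reads in a sort and Gp6 had none. Summed levels of the megakaryocyte list were 3.08 and 2.62 RPKM, and the part of this list in the level of Meis1 was not tested.

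Early B cell genes had 3 of 11 detected, Cd79b, Cd79a and Igll1, and summed levels of 12.1 and 8.59 RPKM, with none at 0 and Cd79a called higher in sort 1. Dendritic cell genes, a lineage that depends on FLT3, had 1 of 10 detected, Itgax at 1.19 and 1.06 RPKM, and summed levels of 5.40 and 4.65. Endothelial and stromal genes had 1 of 12 detected, Pecam1, which leukocytes also carry, at 10.6 and 9.74 RPKM. Endothelial cells also express Cd34, Ly6a and Mecom. The endothelial genes of the list had 32 and 24 reads for Eng, 8 and 10 for Tie1, 9 and 10 for Tek, 1 and 4 for Kdr, 0 and 1 for Cdh5 and none for Emcn. The stromal genes Cxcl12, with 6 and 20 reads, and Col1a1, with 1 and 11, were called higher in sort 2. The summed level of the list was 11.0 and 10.3 RPKM, and its part in those 3 genes was not tested. Monocyte and macrophage genes had 6 of 11 detected. Of the 11, 4 (C1qa, C1qb, C1qc and Cd163) were called higher in sort 1, where 4.9% of all tested genes were, and Cx3cr1 was called higher in sort 2. Among these calls only that of Cd163 also passed edgeR's exact test (adjusted p = 0.049). The summed level of the list was 255 RPKM in sort 1 and 183 in sort 2, with no gene at 0 in both, and its part in the reads of Ly6a was not tested. The T and NK cell list had 0 of 9 detected and summed levels of 1.38 and 0.851 RPKM. The erythroid list had 1 of 8 detected, Tfrc at 1.72 and 2.48 RPKM. Of its genes 7 had ratios above 0, and Slc4a1, with 37 and 125 reads, and Hba-a1, with 14 and 32, were called higher in sort 2. The mature neutrophil list had 10 of 10 detected and none called, led by Retnlg (2321 and 2439 RPKM), S100a9 (879 and 716), S100a8 (398 and 401) and Ngp (353 and 210). Its summed levels were 4226 and 3950 RPKM, where the 11 eosinophil genes summed to 3489 and 4327, so the neutrophil sum was the higher in sort 1 and the lower in sort 2. Neutrophil precursors also express Gfi1 and Myb, and the part of this list in their levels was not tested.

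Annotated genes overlap some of the exons. In GENCODE M21 an antisense gene shares 559 of 8933 exon bases of Myb, 896 of 10532 of Meis1, 148 of 7290 of Cd34, 101 of 3187 of Gfi1 and 81 of 12427 of Mecom, and a further same-strand entry shares 1029 bases of Meis1. Mir196b lies within Hoxa9 models, and Myc, Flt3 and Ly6a have no such overlap. The libraries were stranded per the labels' protocols, but no source used here says whether the counting used strand.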

How the data were processed

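Reads were aligned with STAR 2.4.0c to mm10, per the submitters' processing notes. The authors deposited whole-number read counts and RPKM values for each row of RefSeq transcripts sharing start and end. No source used here says how reads were counted. From rows of 1 transcript, the summed counts were found to be 25.0% and 22.9% of the depth by which RPKM was scaled, so the deposited RPKM values are lower than the table totals would give.

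Values of 26099 rows were summed per gene symbol. Libraries were scaled by TMM (edgeR 4.0.16), with a prior count of 2 in log2 ratios. The sorts were compared by an exact two-sided binomial test (SciPy 1.17.1) with Benjamini-Hochberg adjustment over all genes that reached 10 reads in the sum of the sorts, called at an adjusted p under 0.05 and 2-fold. It was checked on simulated data that held counting error only, so the check does not cover dispersion between libraries. edgeR's exact test used the common dispersion of both libraries taken as 1 group (biological coefficient of variation 0.232). The edgeR quasi-likelihood test has no residual degrees of freedom here. Shares carry 95% Wilson intervals, and intervals and limits cover counting error only. Alternatives included DESeq2 1.42.0 size factors, total counts and other filters, prior counts and minimums. The GC correction, and taking the higher row of each gene in each sort, were added after the data were seen.

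The members and gene lists were chosen with earlier results of these data known. Named genes were every member, its paralogues, the 4 highest genes of each list and any called gene. Kit, Prdm4, Procr, the marker genes given as near 0 and the list genes named as below a member or with ratios below 0 fell outside that rule and were chosen after their values were seen. Some genes that the rule takes are not reported here. Promoters came from RefSeq (GRCm38.p6) and covered 7 of 9 members, Myc and Ly6a having no entry. Motifs were searched on both strands.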

Additional observations from a re-analysis of the deposited data

How the results depend on the processing

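The count of 5 detected members was 5 at a minimum of 0.5 RPKM, 4 at 2 RPKM, 6 with a CPM of at least 1 in place of RPKM, and 5 from either sort alone or from the highest row of each gene in each sort. Flt3 was the member added by the CPM rule. The count of members called different between the sorts was 1, Ly6a, under TMM, DESeq2 size factors, total counts and no filter on low counts. It was 0 with a minimum of 50 reads, which leaves Ly6a untested, and 0 with edgeR's exact test, by which 1 member had an unadjusted p under 0.05. It was 2 at 1.5-fold and 2 with the GC correction of the fold, Gfi1 being added each time, and 3 at any fold, with Myb. Against the order by mean RPKM, the number of member pairs that changed order was 0 to 3 when 1 sort was left out, the 3 pairs being those of Ly6a with the last genes in sort 2. It was 0 with the highest row of each gene, although the ranges of Gfi1 (1.04 and 2.14 RPKM) and Cd34 (1.36 and 1.31) then overlapped. Depth limits Flt3, Hoxa9, Mecom and Ly6a, which have 29, 19, 8 and 12 reads over both sorts. The comparison of the sorts cannot be repeated without either library. No paired analysis was possible because both libraries belong to 1 group.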
